A study of Arabidopsis thaliana with 12 samples.

Results

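In all, 10 genes of flavonoid synthesis and its control were followed in Arabidopsis roots. They were picked as a list of loci of the pathway, with earlier results of these data known. They were CHS, TT5, F3H, TT7, FLS1, DFR, LDOX and UGT78D2, which encode enzymes, and MYB12 and MYB111, which encode transcription factors. All 10 were among the 23719 genes listed in at least 1 library, and 7 of the 10 were among the 18326 genes that were tested, a filter asking for an FPKM of 1 or more in 3 or more libraries. Those 7 exceeded that level in every library. RNA was sequenced from roots of Col, the reference accession, and of the erf114 mutant, grown for 5 days at 22 °C and kept on mock medium (MS) or given methyl jasmonate (MeJA) for 3 h. The 4 groups, Col on MS, Col on MeJA, erf114 on MS and erf114 on MeJA, held 3 libraries each. MeJA is the methyl ester of jasmonate, a hormone of wounding and defence, and its dose is 15 µM in the treatment protocol but 50 µM in the series' design text. The design asks what the transcription factor ERF114 contributes to the jasmonate response. The sources used here do not give the kind of erf114 allele or say whether replicates were separate cultures. The p-values therefore speak of the spread among these libraries alone, and that spread could be technical.

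Flavonoids are made from phenylalanine through coumaroyl-CoA. Chalcone synthase (CHS), chalcone isomerase (TT5) and flavanone 3-hydroxylase (F3H) build the shared skeleton, to which TT7, a flavonoid 3'-hydroxylase, can add a hydroxyl group. FLS1, flavonol synthase, then draws the product into flavonols, whereas DFR and LDOX draw it into anthocyanins and, in the seed coat, proanthocyanidins. UGT78D2 attaches glucose to flavonols and anthocyanins. MYB12 and MYB111 are related R2R3-MYB activators of the early genes, and in seedlings MYB12 is known for its part in root flavonol production, where flavonols are known to modulate auxin movement and reactive oxygen.

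Each library summed to between 20546417 and 20897031 estimated counts and listed between 21209 and 21845 genes. ERF114 itself had 0 to 3 counts in each MS library, 59, 50 and 42 in the Col MeJA libraries and 13, 13 and 10 in the erf114 MeJA libraries, a difference of -1.95 ± 0.39 on the log2 scale that missed the threshold (edgeR adjusted p = 0.071). ERF114 reached 1 FPKM in the Col MeJA libraries alone, so it was tested only through the group where it was high. Root markers were present in every library, with the summed FPKM of the 2 endodermal markers at 506 to 896. The 3 epidermis and hair markers summed to 55.0 to 56.4 FPKM in Col on MS and 36.3 to 39.5 on MeJA, and to 51.7 to 54.5 and 28.3 to 35.0 in erf114. The summed FPKM of 5 shoot markers, transcripts of photosynthesis, ran from 107 to 1004 and was highest in its group in Col MS replicate 1, Col MeJA replicate 3, erf114 MS replicate 2 and erf114 MeJA replicate 3. The 3 seed markers summed to at most 0.76 FPKM in the Col libraries and in erf114 MS replicate 1, and to 18.7 to 46.5 FPKM in the other 5 erf114 libraries, and CRU3 among them was at 0 in all Col libraries. FPKM, a fragment count scaled to gene length and sequencing depth, carries no correction for composition. On that scale the median gene stood lower on MeJA by a log2 value of -0.05 in Col and -0.28 in erf114, and erf114 differed from Col by 0.11 on MS and -0.11 on MeJA, whereas edgeR's scaled counts held all 4 medians between -0.01 and 0.01. Levels below are deposited FPKM, and every log2 difference is from edgeR on scaled counts. In root RNA, a change in the number of cells that express a gene and a change in RNA per cell cannot be told apart.

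The 300 bases upstream of the annotated start were read from the RefSeq assembly TAIR10.1 for the 10 genes, since several of them moved together. A search on both strands for the G-box CACGTG, an element bound by bHLH and bZIP factors, and for the MYB elements ACCTACC and ACCTAAC, which share no overlap with it, found the G-box once each in CHS, F3H, DFR and MYB12. Among the same windows of 27443 protein-coding genes, 7.09% held CACGTG, 1.33% ACCTACC and 2.93% ACCTAAC. Neither MYB element was found in any of the 10 windows. Only these exact strings were searched, and other forms or sites outside the windows would be missed. Whether the annotated starts are the starts of transcription was not checked. The windows of 3 tested members with a G-box and of TT5, the tested member with the largest MeJA response, are printed 5′ to 3′ on the gene's strand, with capitals marking the G-box. They lie at chr5:4488176-4488475 (CHS, plus strand), chr3:19024892-19025191 (F3H, plus strand), chr2:19476026-19476325 (MYB12, plus strand) and chr3:20431598-20431897 (TT5, minus strand).
CHS: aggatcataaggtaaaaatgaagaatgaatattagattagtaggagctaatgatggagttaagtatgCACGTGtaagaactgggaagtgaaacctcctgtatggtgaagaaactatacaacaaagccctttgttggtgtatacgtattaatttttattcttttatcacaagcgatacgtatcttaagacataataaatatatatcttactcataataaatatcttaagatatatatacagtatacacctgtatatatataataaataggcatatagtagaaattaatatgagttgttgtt
F3H: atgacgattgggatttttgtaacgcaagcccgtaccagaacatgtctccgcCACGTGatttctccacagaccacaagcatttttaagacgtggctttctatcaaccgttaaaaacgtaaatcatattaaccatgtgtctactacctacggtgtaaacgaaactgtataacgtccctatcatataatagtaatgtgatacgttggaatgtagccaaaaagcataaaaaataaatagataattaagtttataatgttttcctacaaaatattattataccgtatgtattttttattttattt
MYB12: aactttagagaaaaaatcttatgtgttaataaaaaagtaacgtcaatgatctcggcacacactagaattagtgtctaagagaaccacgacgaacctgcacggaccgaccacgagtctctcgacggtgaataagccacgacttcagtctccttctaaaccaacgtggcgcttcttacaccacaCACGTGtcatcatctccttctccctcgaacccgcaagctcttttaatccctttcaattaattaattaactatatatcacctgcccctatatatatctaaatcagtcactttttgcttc
TT5: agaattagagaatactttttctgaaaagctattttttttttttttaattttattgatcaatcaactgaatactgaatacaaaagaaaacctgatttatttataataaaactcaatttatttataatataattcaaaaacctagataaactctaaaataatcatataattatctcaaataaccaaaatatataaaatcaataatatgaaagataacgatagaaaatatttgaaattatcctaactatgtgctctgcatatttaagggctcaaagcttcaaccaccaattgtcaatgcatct
The G-box spanned bases -233 to -228 of CHS, -249 to -244 of F3H and -118 to -113 of MYB12, counted back from the annotated start. F3H's window and its gene body overlap AT3G51238, a noncoding gene on the opposite strand, and CHS overlaps AT5G13940 on the opposite strand. The sources used here do not say whether the counting used strand, so reads of such partners cannot be told apart.

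In Col roots on MeJA, 3 enzyme genes of the flavonol route were higher than on MS and MYB12, which encodes an activator of that route, was lower. TT5, F3H and FLS1 rose by 1.70, 1.04 and 0.86 on the log2 scale, and MYB12 fell by 0.88. In erf114 TT5, F3H and FLS1 rose, as did CHS, UGT78D2 and MYB12. Of the 7 tested members, 3 rose and 1 fell in Col, where 22% of all tested genes were called, 10.4% higher and 11.5% lower. In erf114, 6 rose and none fell, where 18.8% of all tested genes were called, 10.2% higher and 8.59% lower. The median log2 difference of the 7 was 0.60 in Col and 1.01 in erf114, against 0.00 and -0.01 over all genes tested. Some root markers moved with the treatment too. The epidermal markers GL2 and SHV2 fell in Col by 0.83 and 0.74, as did the root cap marker NAC015 by 0.73. GL2 fell in erf114 by 0.68. No other root marker passed in Col, and GL2 alone passed in erf114. The epidermal marker WER stood at 0.24 in Col and -0.41 in erf114, and the root cap marker SMB at -0.17 and -0.47. The cortex marker AT1G62500 stood at -0.30 in Col and at 1.08 in erf114 (edgeR adjusted p = 0.56 and 0.053). The endodermal markers SCR and CASP1 stood at -0.39 and -0.48 in Col and at 0.03 and 0.06 in erf114. The part of the root markers in the members' changes was not tested.

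CHS (AT5G13930, chromosome 5, 4488476 to 4490264 on TAIR10.1) makes naringenin chalcone, the first flavonoid. Its level was 347, 261 and 245 FPKM in the Col MS libraries, 473, 399 and 397 in Col on MeJA, 319, 298 and 282 in erf114 on MS, and 740, 624 and 772 in erf114 on MeJA. In FPKM the 2 MS groups overlapped, Col on MeJA lay above both, and erf114 on MeJA was highest. In TMM-scaled CPM, which corrects depth and composition, Col MS replicate 1 at 564 lay above Col MeJA replicates 2 and 3, at 556 and 559. In Col the log2 difference was 0.60 ± 0.23 (SE), which missed the threshold (edgeR adjusted p = 0.079). Col MS replicate 1, the library with the most shoot-marker transcript, was the highest of its group, and without it CHS was called in Col, at 0.93 (edgeR adjusted p = 0.0028). It was also called at 0.63 with replicate number as a block (edgeR adjusted p = 0.028). That block spanned all 12 libraries. On unscaled FPKM, same-numbered libraries paired for Col MS with Col MeJA but not for erf114 MS with erf114 MeJA. Over all 16 alternatives for CHS in Col the edgeR, DESeq2 or limma adjusted p ran from 0.0028 to 0.22. In erf114 CHS rose by 1.57 ± 0.23, or 2.96-fold (edgeR adjusted p = 0.00036).

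TT5 (AT3G55120, chromosome 3, 20430059 to 20431597) closes the chalcone into naringenin. It stood at 13.4, 14.3 and 13.0 FPKM in Col on MS and at 43.5, 42.1 and 41.5 on MeJA. In erf114 it stood at 21.2, 21.6 and 23.8 FPKM on MS and at 76.8, 79.1 and 54.6 on MeJA. No 2 of the 4 groups overlapped, and erf114 lay above Col on either medium. The rise with MeJA was 3.25-fold in Col (log2 1.70 ± 0.13, edgeR adjusted p = 2e-06) and 3.88-fold in erf114 (1.96 ± 0.13, edgeR adjusted p = 5.9e-07).

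F3H (AT3G51240, chromosome 3, 19025192 to 19026872) hydroxylates naringenin to dihydrokaempferol, the branch point of the pathway. Its levels were 67.5, 68.6 and 59.1 FPKM in Col on MS and 137, 130 and 122 on MeJA. In erf114 they were 78.5, 68.3 and 84.4 FPKM on MS and 167, 152 and 147 on MeJA. All 6 MeJA libraries lay above all 6 MS libraries. F3H rose by 1.04 ± 0.15 in Col (edgeR adjusted p = 0.00033) and 2.47-fold in erf114 (edgeR adjusted p = 6e-05).

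TT7 (AT5G07990, chromosome 5, 2560328 to 2563137), which leads from kaempferol-type to quercetin-type products, was the lowest of the tested enzyme genes. Col libraries held 3.75, 2.43 and 2.96 FPKM on MS and 2.62, 2.76 and 1.76 on MeJA. The erf114 libraries held 2.40, 3.59 and 3.06 FPKM on MS and 3.57, 3.18 and 5.67 on MeJA. MS and MeJA overlapped in FPKM in both genotypes, whereas in TMM-scaled CPM the erf114 libraries did not, at 3.63, 5.16 and 4.50 on MS and 6.48, 5.27 and 11.4 on MeJA. The 5.67 FPKM was in erf114 MeJA replicate 3, the library of that group with the most shoot-marker transcript. Neither the value of -0.32 ± 0.33 in Col (edgeR adjusted p = 0.51) nor that of 0.79 ± 0.32 in erf114 (edgeR adjusted p = 0.12) passed.

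FLS1 (AT5G08640, chromosome 5, 2803833 to 2805606) oxidises dihydroflavonols to flavonols. Col roots held 38.9, 41.9 and 37.7 FPKM on MS and 74.9, 66.2 and 64.2 on MeJA, and erf114 roots held 53.2, 44.9 and 63.4 on MS and 95.9, 95.8 and 69.4 on MeJA. MS and MeJA did not overlap within either genotype. FLS1 rose 1.81-fold in Col (log2 0.86 ± 0.16, edgeR adjusted p = 0.0016) and 2.01-fold in erf114 (1.01 ± 0.16, edgeR adjusted p = 0.00052).

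UGT78D2 (AT5G17050, chromosome 5, 5607788 to 5609589) encodes the flavonoid 3-O-glucosyltransferase. Col libraries held 17.2, 16.4 and 18.5 FPKM on MS and 17.5, 13.3 and 15.8 on MeJA, which overlapped. The erf114 libraries held 19.7, 17.0 and 21.0 on MS and 30.2, 27.1 and 25.9 on MeJA, which did not. The log2 difference was -0.10 ± 0.16 in Col, with an approximate 95% interval of -0.48 to 0.27 (edgeR adjusted p = 0.68), and 0.83 ± 0.16 in erf114 (edgeR adjusted p = 0.0026).

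MYB12 (AT2G47460, chromosome 2, 19476326 to 19479597) stood at 12.5, 13.3 and 15.6 FPKM in Col on MS and at 7.28, 7.30 and 6.94 on MeJA, well apart. In erf114 it stood at 11.2, 10.1 and 12.9 FPKM on MS and at 15.8, 12.2 and 12.9 on MeJA, which overlap on this scale. In TMM-scaled CPM the erf114 libraries did not overlap, at 13.3, 11.5 and 15.0 on MS and 22.7, 16.0 and 20.4 on MeJA. MYB12 fell in Col by 0.88 ± 0.16 on the log2 scale, a ratio of 0.544 (edgeR adjusted p = 0.0013). In erf114 it rose by 0.57 ± 0.15, or 1.48-fold (edgeR adjusted p = 0.019), but that call was lost on unscaled log2(FPKM + 1), where the value was 0.24 (limma adjusted p = 0.18). It was also lost when erf114 MS replicate 1 or 2, or erf114 MeJA replicate 1 or 3, was left out, with edgeR adjusted p between 0.053 and 0.095, and over all 16 alternatives adjusted p ran from 0.0047 in DESeq2 to 0.18.

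**Figure D1:**
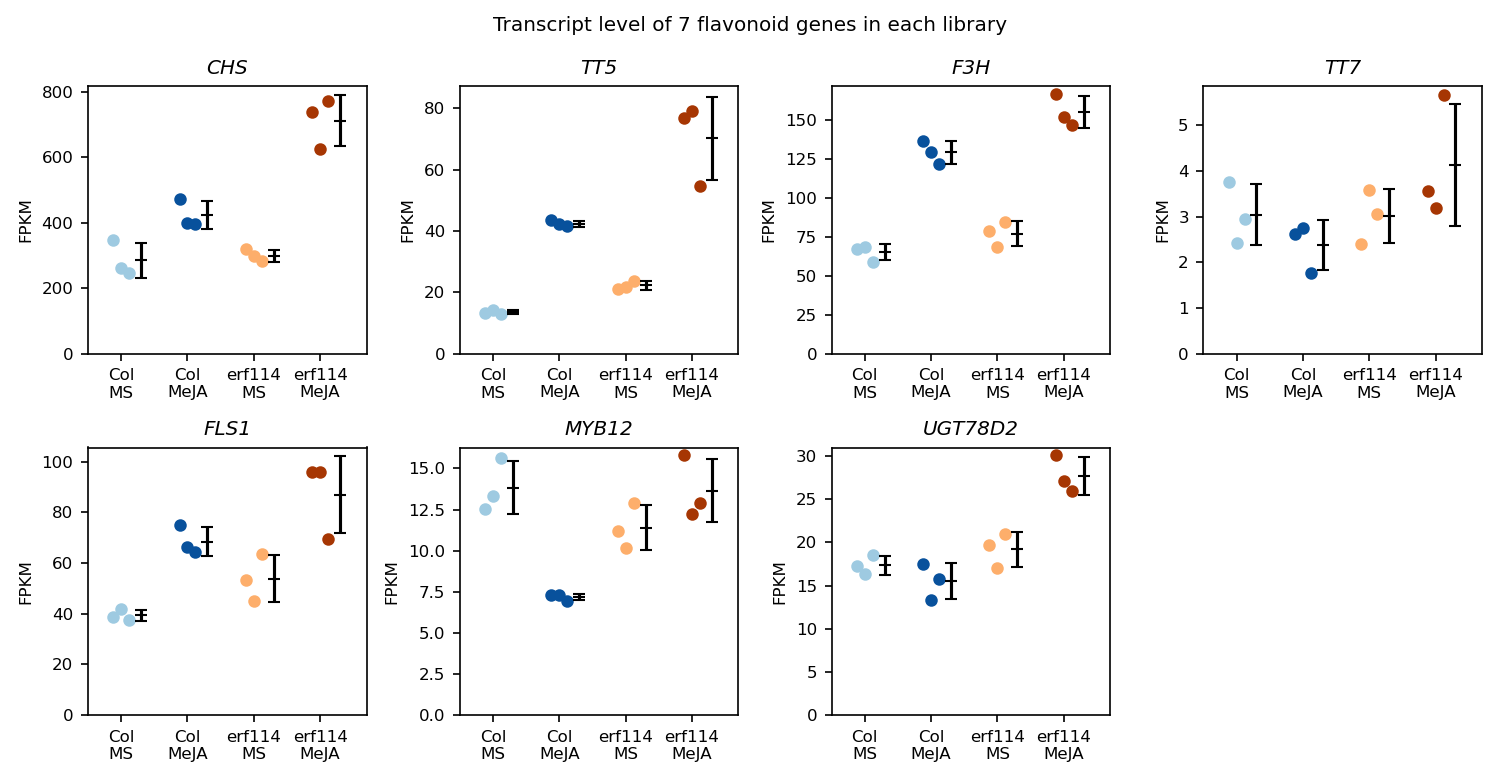
FPKM (vertical axes, linear from 0) of the 7 tested flavonoid genes in the 12 libraries by group (horizontal axes), each point a library and each bar the mean ± SD (n = 3). TT5, F3H and FLS1 are higher on MeJA in either genotype and CHS in erf114, with CHS in Col short of the threshold, while MYB12 is at 6.94 to 7.30 FPKM in Col on MeJA and at 10.1 or more in the other 9 libraries.

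DFR, LDOX and MYB111 did not pass the filter and are described by their counts. MYB111 (AT5G49330) had 1 count over the 3 Col MS libraries, 5, 4 and 0 in erf114 on MS, and 0 in all 6 MeJA libraries, so at this depth the second flavonol activator was hardly detected in roots. DFR (AT5G42800), dihydroflavonol reductase, had 1, 1 and 0 counts in Col on MS and 1, 2 and 8 on MeJA. In erf114 it had 2, 31 and 4 counts on MS and 20, 0 and 87 on MeJA. LDOX (AT4G22880), anthocyanidin synthase, had 2, 0 and 0 counts in Col on MS and 3, 3 and 5 on MeJA, and 1, 17 and 6 in erf114 on MS and 14, 0 and 53 on MeJA. Both genes were therefore uneven within erf114, with the same 3 libraries high, erf114 MS replicate 2 and erf114 MeJA replicates 1 and 3. With 3 libraries a side an exact 2-sided permutation p cannot go below 0.1, and that was the lowest value for DFR and LDOX over the 4 pairwise comparisons.

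Those 3 libraries held 845, 404 and 593 FPKM of summed shoot markers, and erf114 MS replicates 1 and 3 held 390 and 361. The sum was 107 in erf114 MeJA replicate 2, where DFR and LDOX were at 0. Col MS replicate 1 held the most shoot-marker transcript of all, 1004 FPKM, with 1 count of DFR and 2 of LDOX. Col MeJA replicate 3 held 434 FPKM of shoot markers, with 8 counts of DFR and 5 of LDOX. Seed markers summed to 41.8, 25.6 and 46.5 FPKM in the 3 libraries high in DFR and LDOX. They summed to 0.11 and 41.2 in erf114 MS replicates 1 and 3 and to 18.7 in erf114 MeJA replicate 2. The part of shoot or seed tissue in the DFR and LDOX counts was not tested.

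**Figure D2:**
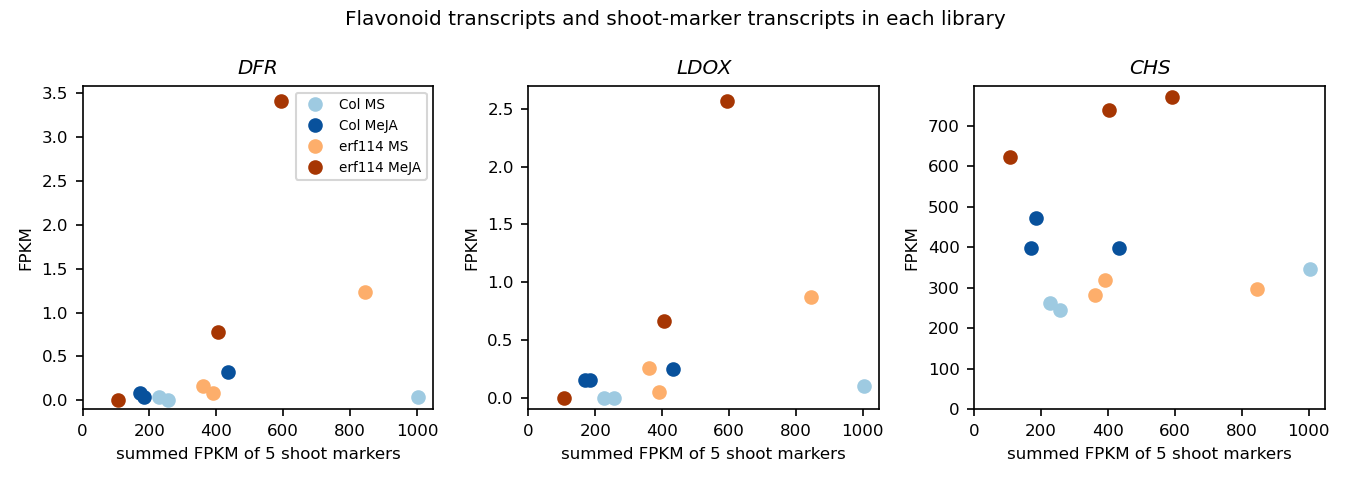
FPKM of DFR, LDOX and CHS (vertical axes) against the summed FPKM of 5 shoot markers (horizontal axes), each point 1 of 12 libraries. DFR and LDOX reach 3.41 and 2.57 FPKM in erf114 MeJA replicate 3 and are at 0.10 FPKM or less in Col MS replicate 1, where the shoot markers sum to 1004 FPKM.

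Levels of the pathway genes, compared per length as FPKM, spanned a wide range. In Col on MS, CHS led at 285 ± 55 FPKM (SD, n = 3), followed by F3H at 65.1 ± 5.2, FLS1 at 39.5 ± 2.2 and UGT78D2 at 17.4 ± 1.1. MYB12 at 13.8 ± 1.6 and TT5 at 13.5 ± 0.7 came next and overlapped, and TT7 was last at 3.05 ± 0.66. In Col on MeJA TT5 stood above UGT78D2, at 42.4 ± 1.0 against 15.5 ± 2.1 FPKM, and in erf114 on MS it already did, at 22.2 ± 1.4 against 19.2 ± 2.0. In erf114 on MeJA FLS1 at 87.0 ± 15.3 and TT5 at 70.2 ± 13.6 FPKM overlapped, below F3H at 155 ± 10 and CHS at 712 ± 78.

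The direct comparison of erf114 with Col asks how the genotypes differ on each medium. On MS, TT5 stood at 22.2 ± 1.4 FPKM in erf114 against 13.5 ± 0.7 in Col, and FLS1 at 53.8 ± 9.3 against 39.5 ± 2.2. On MeJA, MYB12 was at 13.7 ± 1.9 FPKM in erf114 against 7.17 ± 0.20 in Col, UGT78D2 at 27.7 ± 2.2 against 15.5 ± 2.1, and TT5 at 70.2 ± 13.6 against 42.4 ± 1.0. In erf114 on MeJA 3 of the 7 tested members were higher than in Col and none lower, where 0.382% of all tested genes were called, 0.327% higher and 0.0546% lower. Shoot markers summed to 107 to 593 FPKM in erf114 on MeJA and 171 to 434 in Col, and seed markers to 18.7 to 46.5 against 0.07 to 0.15, and their part in these differences was not tested.

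On MS no member was called in edgeR, where 0.0327% of all tested genes were called, 0.0109% higher and 0.0218% lower, nor in DESeq2 or limma. TT5 and MYB12 had an unadjusted p under 0.05, as did 700 of the 18326 genes tested. TT5 differed by 0.59 ± 0.13 (edgeR adjusted p = 0.78), with all 3 erf114 libraries above all 3 Col libraries, and MYB12 by -0.39 ± 0.15 (edgeR adjusted p = 0.85). FLS1 differed by 0.33 (edgeR adjusted p = 0.85), and its erf114 and Col libraries overlapped in TMM-scaled CPM though not in FPKM. For CHS the difference was -0.08, with an approximate 95% interval of -0.60 to 0.44, and for UGT78D2 it was 0.03, with an interval of -0.35 to 0.40.

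On MeJA all 7 members had a higher mean in erf114 and an unadjusted p under 0.05, as did 1572 of the 18326 genes tested in either direction. MYB12 was 2.08-fold higher (log2 1.06 ± 0.16, edgeR adjusted p = 0.011), UGT78D2 1.95-fold (0.96 ± 0.16, edgeR adjusted p = 0.026) and TT5 1.80-fold (0.85 ± 0.13, edgeR adjusted p = 0.013). CHS differed by 0.89 ± 0.23 (edgeR adjusted p = 0.2) and was called in DESeq2, at 0.90 (DESeq2 adjusted p = 0.02). TT7 at 0.95 ± 0.33, FLS1 at 0.48 ± 0.15 and F3H at 0.39 ± 0.15 did not pass, with edgeR adjusted p of 0.42, 0.37 and 0.49.

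All 3 calls were lost when Col MeJA replicate 2 or 3, or erf114 MeJA replicate 1, was left out. Their sizes then stayed at 0.94 to 1.05 for MYB12, 0.84 to 0.96 for UGT78D2 and 0.77 to 0.82 for TT5. Without erf114 MeJA replicate 3 the UGT78D2 call alone was lost, at 0.94 (edgeR adjusted p = 0.1). With the library of highest shoot-marker level left out of each group, 1 of the 3, TT5, was called. Over the 16 alternatives adjusted p for these 3 genes reached 0.12 for TT5, 0.24 for MYB12 and 0.25 for UGT78D2, with all values above 0.

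**Figure D3:**
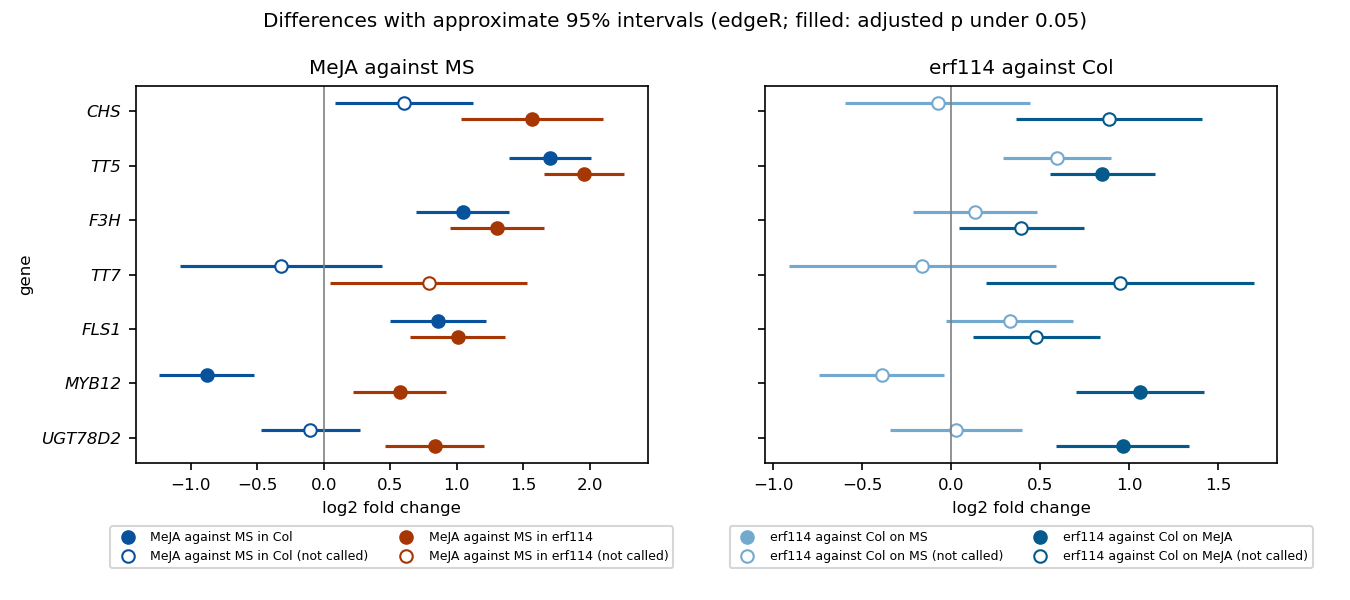
Log2 fold changes from edgeR (horizontal axes) of the 7 tested genes (vertical axis), with approximate 95% intervals as lines and filled points for adjusted p under 0.05. MYB12 lies at -0.88 in Col and 0.57 in erf114 for MeJA against MS, and MYB12, UGT78D2 and TT5 are the filled points for erf114 against Col on MeJA.

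Whether the MeJA response differed between genotypes was tested as an interaction, the erf114 response minus the Col response. MYB12 had the largest value, 1.45 ± 0.22, with an unadjusted p = 2.4e-05 that missed the threshold after adjustment over all genes (edgeR adjusted p = 0.072), while DESeq2 called it at 1.47 (DESeq2 adjusted p = 9.1e-06). Over 20 alternatives the adjusted p ran from that value to 1, the latter without the highest shoot-marker library of each group. No member was called in edgeR, where 0.0273% of all tested genes were called, all of them higher, and 4 of the 7 had an unadjusted p under 0.05, against 1107 of 18326 genes. The other 3 of those 4 were TT7 at 1.11 ± 0.46, CHS at 0.96 ± 0.32 and UGT78D2 at 0.94 ± 0.23. For TT5, F3H and FLS1 the interaction intervals included 0, at -0.17 to 0.68, -0.23 to 0.75 and -0.36 to 0.65.

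Around the members, the steps that feed the pathway also rose with MeJA. Of 7 genes that lead from phenylalanine to coumaroyl-CoA, 6 rose in Col and 7 in erf114, with medians of 0.64 and 0.77. Over all tested genes 10.4% rose in Col and 10.2% in erf114. 4CL3, the 4-coumarate-CoA ligase associated with flavonoids, had the largest rise, 1.66 ± 0.18 in Col and 1.57 ± 0.17 in erf114 (edgeR adjusted p = 3e-05 and 3.6e-05). PAL1, a phenylalanine ammonia-lyase, rose by 0.81 ± 0.13 and 0.73 ± 0.13. PAL4, at 0.42 ± 0.18 in Col, was the gene that did not pass there.

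Of 5 further genes listed under flavonol synthesis 4 were tested, and all 4 rose in both genotypes, where 10.4% and 10.2% of all tested genes rose. CHIL, a chalcone isomerase-like protein that aids CHS, rose by 0.94 ± 0.13 in Col and 0.79 ± 0.13 in erf114. FLS3, FLS4 and FLS5, tandem copies next to FLS2, rose by 1.48, 1.03 and 0.63 in Col. They were listed by name, and whether they act as flavonol synthases was not tested. These copies are alike, and the sources used here do not say how the counting split shared reads.

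The decoration list held the largest change among the tested genes of these lists. UGT78D1 (AT1G30530, chromosome 1, 10814612 to 10816615), a flavonol 3-O-rhamnosyltransferase, stood at 1.19, 1.86 and 1.80 FPKM in Col on MS and at 51.2, 55.4 and 57.7 on MeJA. In erf114 it stood at 1.17, 2.47 and 1.78 FPKM on MS and at 47.8, 60.9 and 42.1 on MeJA. It thus rose 35.7-fold in Col (log2 5.16 ± 0.21, edgeR adjusted p = 1.5e-08) and 34.2-fold in erf114 (5.09 ± 0.20, edgeR adjusted p = 1.5e-08). Its relative UGT78D2 stood at -0.10 in Col and 0.83 in erf114, and how reads shared by these copies were counted is likewise unknown.

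AT1G06000, annotated as a flavonol 7-O-rhamnosyltransferase, rose from 57.6 ± 5.5 to 164 ± 22 FPKM in Col and from 63.0 ± 5.0 to 208 ± 10 FPKM in erf114. A noncoding gene, AT1G06002, overlaps it on the opposite strand, and RHM1, UGT84A1, GSTF12 and GL3 also have opposite-strand partners. RHM1, which makes the rhamnose donor, rose by 0.44 ± 0.12 and 0.37 ± 0.12. UGT84A1, a hydroxycinnamate glucosyltransferase, fell in Col by 1.90 ± 0.36 (edgeR adjusted p = 0.0024) and stood at -0.23 ± 0.32 in erf114 (edgeR adjusted p = 0.73). It reached 1 FPKM in 4 libraries, all on MS, so it was tested only through the group where it was high. Of the 13 genes on this list 5 were tested, of which 4 rose and 1 fell in Col and 3 rose in erf114. Over all tested genes 10.4% rose and 11.5% fell in Col, and 10.2% rose in erf114. The other 8, among them the anthocyanin glycosyl- and acyltransferases, were listed at no more than 2.23 FPKM in any library.

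Of 12 activators of anthocyanin and proanthocyanidin synthesis 4 were tested, and 1 rose in Col, GL3 at 0.74 ± 0.18, and none in erf114. Over all tested genes 10.4% and 10.2% rose. The anthocyanin activators PAP1, MYB90 and MYB114 were at no more than 0.30 FPKM in any library, and TT8, TT2, TT1 and TT16 at no more than 0.19 FPKM. MYB113, which missed the filter, had 0 counts in every MS library. It had 3, 6 and 3 in Col on MeJA and 16, 6 and 13 in erf114 on MeJA, at most 1.18 FPKM. Of 5 genes of proanthocyanidin synthesis and vacuolar transport GSTF12 was tested and did not pass, at -0.90 ± 1.32 in Col and 1.53 ± 0.84 in erf114. Its counts, 10, 23 and 8 on MS and 28, 1 and 64 on MeJA in erf114, were highest in the same 3 libraries as those of DFR and LDOX, the only ones in which it reached 1 FPKM. The other 4 genes, BAN, TT12, AHA10 and TT10, were at no more than 0.13, 0.09, 0.68 and 1.40 FPKM in any library.

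Most tested repressors of the pathway did not pass. Of 11 on the list 10 were tested, and 4, MYBL2 among them, fell in Col, where 11.5% of all tested genes fell. In erf114 2 of the 10 fell and 1 rose, against 8.59% and 10.2% of all tested genes. MYBL2, an R3-type MYB repressor of anthocyanin genes, fell by 1.85 ± 0.39 in Col and 1.40 ± 0.37 in erf114, from a level of 1.89 ± 0.81 FPKM in Col on MS. MYBL2 reached 1 FPKM in 5 libraries, all on MS, so it too was tested only through the group where it was high. LBD37, which represses anthocyanin genes under ample nitrogen, fell by 1.13 ± 0.19 and 0.68 ± 0.19, and its relative LBD38 fell in Col by 0.79 ± 0.18. AT1G23390, annotated as a Kelch repeat F-box protein, fell in Col by 0.71 ± 0.16 and stood at -0.04 ± 0.16 in erf114. CPC rose in erf114 by 0.87 ± 0.22 (edgeR adjusted p = 0.013), though its MS and MeJA libraries there overlapped in FPKM. Of the 3 other flavonol activators 2 were tested, and HY5, a bZIP factor of light signalling, rose in erf114 by 0.60 ± 0.17 (edgeR adjusted p = 0.029) and stood at 0.07 ± 0.17 in Col. Its erf114 libraries overlapped, at 26.8, 24.8 and 33.5 FPKM on MS and 42.9, 38.7 and 23.7 on MeJA, and its interaction did not pass (edgeR adjusted p = 0.64). MYB11, the third MYB of the MYB12 type, was at no more than 0.23 FPKM.

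Over these 7 lists 33 of 56 genes were tested, of which 15 rose and 5 fell in Col, and 16 rose and 2 fell in erf114. The 5 that fell in Col include UGT84A1 and MYBL2, and the 2 in erf114 include MYBL2. Both genes were tested only through MS libraries, where they were high. Over all tested genes 10.4% rose and 11.5% fell in Col, and 10.2% rose and 8.59% fell in erf114. Between the genotypes none of the 33 was called in edgeR on either medium, with 4 at an unadjusted p under 0.05 on MS and 11 on MeJA, against 700 and 1572 of the 18326 genes tested.

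**Figure D4:**
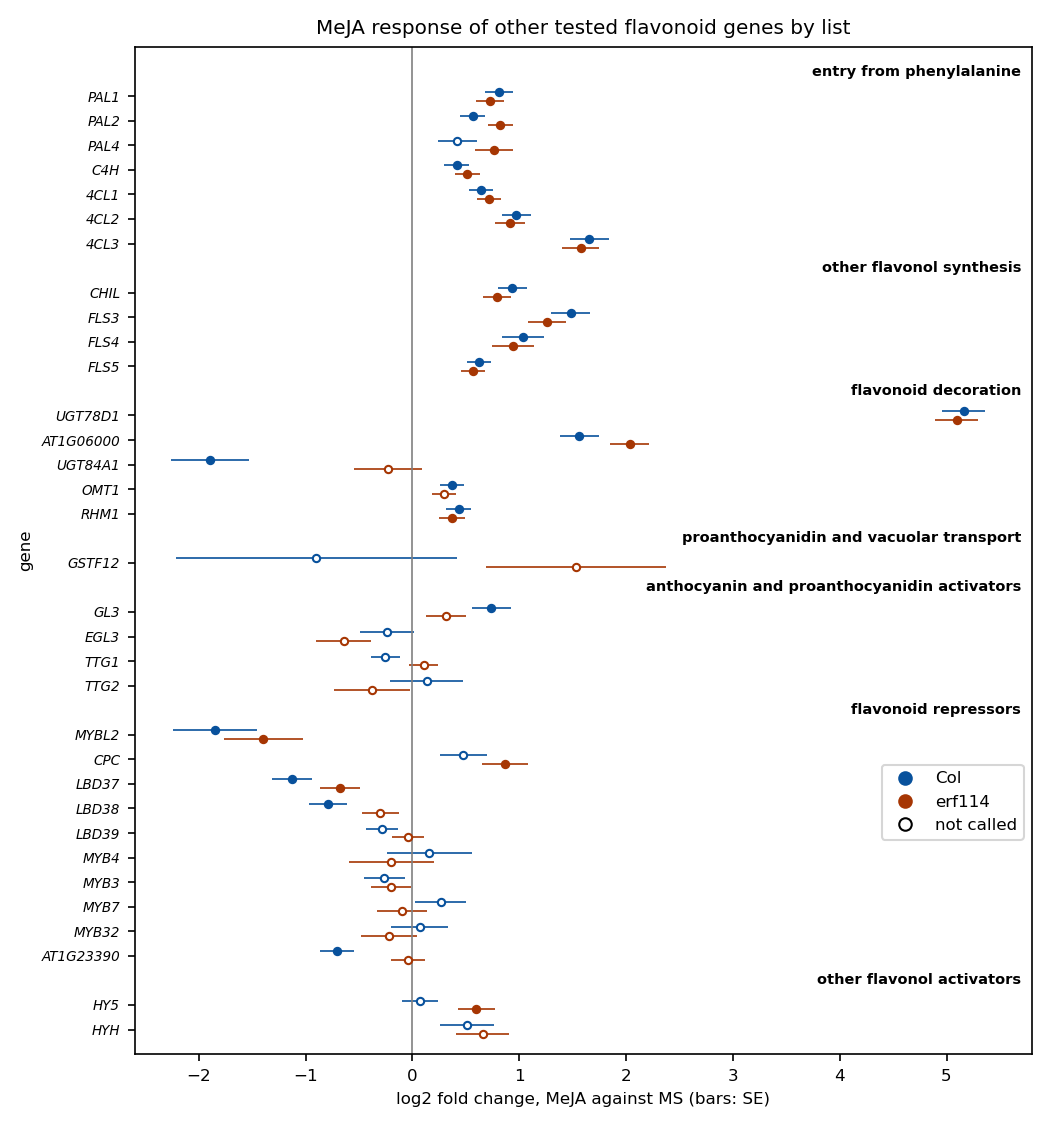
Log2 fold change of MeJA against MS (horizontal axis, bars SE) for the 33 tested genes of the 7 lists (vertical axis), in Col and erf114, filled where the adjusted p was under 0.05. UGT78D1 lies at 5.16 and 5.09, apart from all others, and the genes from PAL1 to FLS5 lie between 0.42 and 1.66.

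Across the 12 libraries, which share the treatment as a source of variation, log2(FPKM + 1) of TT5 correlated with that of F3H at r = 0.97 and of FLS1 at r = 0.96, whereas MYB12 correlated with TT5 at r = -0.21 and with FLS1 at r = -0.17. After the group means were removed, FLS1 and TT5 correlated at r = 0.85, FLS1 and F3H at 0.80 and UGT78D2 and MYB12 at 0.61, deviations that also carry the libraries' composition. Of 12874 genes with a mean FPKM of at least 5, 4CL3 was among the 3 most similar profiles for TT5 (r = 0.981), F3H (r = 0.983) and FLS1 (r = 0.974). The closest profiles to CHS were SBP1, AT1G32220 and ERD9 (r = 0.971, 0.967 and 0.966), and those to MYB12 were AT1G77330, BBX28 and KAI2 (r = 0.935, 0.922 and 0.914). ELIP2, STO and AT2G38710 were closest to UGT78D2 (r = 0.949, 0.924 and 0.920), and eIF6A was closest to TT7 (r = 0.896). These are descriptions over libraries that share groups, and no p is given.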

How the data were processed

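Each library came with its own gene table, and its estimated counts, not normalized, were made by the authors before deposit, per the file headers. The same tables hold TPM and FPKM columns from the authors, per the file headers. Aligner, counter and build: not given in the sources used here. Fractional values made up 1.542 to 1.718% of the deposited counts, which were rounded. The deposited TPM values were read only to find that the smallest listed value was 0.01, and the deposited FPKM values served for levels and the filter. A gene absent from a table was set to 0. Gene IDs were matched to TAIR10.1 for names and coordinates, and all 23719 matched.

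Tests used R 4.3.3 and edgeR 4.0.16 (TMM, quasi-likelihood, 4 group means, 8 residual degrees of freedom, Benjamini-Hochberg adjustment over 18326 genes, threshold 0.05). The biological coefficient of variation was 17.9%, and the number of libraries limits precision. SE is the log2 fold change divided by the root of F. Intervals take 8 degrees of freedom and are approximate. DESeq2 1.42.0 and limma 3.58.1 were alternatives. In simulated counts for MeJA against MS in Col over 18326 genes, 16.4% of changes of 1.5-fold, 82.1% of 2-fold and 100% of 4-fold were recovered. There 67, 67 and 66 genes were changed at these sizes, with the same spread for all genes.

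No replicate pair matched within sampling noise (chi-square per gene 7.1 to 61.27). Same-numbered libraries paired, by a correlation of deviations above 0.1 in every pair, for Col MS with Col MeJA (0.43, 0.43 and 0.26) and for Col MS with erf114 MS (0.2, 0.21 and 0.3), and not in the other comparisons. These deviations were taken on log2(FPKM + 1), which carries no correction for composition, and within a group they sum to 0 for each gene, so the correlations are not independent. The part of library composition in them was not tested. What same-numbered libraries share is not stated in the labels.

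The members and gene lists were chosen with earlier results of these data known. Named genes are all 10 members, genes of the 7 lists, and for each tested member the 3 genes with a mean FPKM of 5 or more that correlated best with it over the 12 libraries. List genes called in a MeJA comparison could be named. GSTF12, BAN, TT12, AHA10, TT10, MYB11 and the anthocyanin and proanthocyanidin activators that missed the filter were not called and were named after their values were seen.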

Additional observations from a re-analysis of the deposited data

Results flagged for a closer look

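MYB12 in TMM-scaled CPM lay lower on MeJA in Col and higher in erf114. In TMM-scaled CPM every Col MeJA library (10.1, 9.31 and 8.94) lay below every Col MS library (18.6, 15.0 and 18.5), and every erf114 MeJA library (22.7, 16.0 and 20.4) lay above every erf114 MS library (13.3, 11.5 and 15.0). In FPKM the erf114 libraries overlapped, and the erf114 rise was not called in limma on log2(FPKM + 1), at 0.24 (limma adjusted p = 0.18), in 4 of the 6 fits without 1 erf114 library, or with the replicate block in the erf114 libraries alone (edgeR adjusted p = 0.07). The difference between genotypes, the interaction of 1.45 on the log2 scale, missed the threshold (edgeR adjusted p = 0.072), and over the alternatives its value ran from 1.09 to 1.58.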

How the results depend on the processing

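Of the values of the 7 tested genes recomputed under each alternative, 548 kept their side of the threshold, 24 lost a call and 11 gained one. No called value changed sign. The 548 include values that changed sign without being called in either fit, such as CHS for erf114 against Col on MS. The count of members called was 4 to 5 in Col and 5 to 6 in erf114 with 1 library left out, and 0 throughout for the genotypes on MS. For erf114 against Col on MeJA it was 0 to 3 with 1 library left out, and 1 without the highest shoot-marker library of each group, an alternative chosen after the data were seen. For the interaction it was 0 to 1 with 1 library left out, the call being MYB12 without erf114 MeJA replicate 2 at 1.58 (edgeR adjusted p = 0.02), and 1 in DESeq2 and 1 with the replicate block, again MYB12, at 1.44 (edgeR adjusted p = 0.032). The replicate block also added CHS in Col, with 5 called, and changed no other member's call in the fit of all 12 libraries. On unscaled FPKM, same-numbered libraries did not pair for erf114 MS with erf114 MeJA or for Col MeJA with erf114 MeJA. The block, and the MYB12 interaction call under it, therefore rest on a pairing not seen there. With the block and only the groups compared, chosen after the data were seen, MYB12 in erf114 was lost at 0.57 (edgeR adjusted p = 0.07). Unscaled FPKM with limma called 5 members in each MeJA comparison and 2 for the genotypes on MeJA, where TT5 was lost at 0.70 (limma adjusted p = 0.07). With a mean FPKM of at least 5 as the filter CHS was called in Col, and TT7 could not be tested. Over all genes the count for erf114 against Col on MeJA was 70, but 233 in DESeq2 and 15 without the highest shoot-marker libraries, and for the interaction 5 against 41 in DESeq2. In simulated counts for MeJA in Col 16.4% of 1.5-fold changes were recovered. Far fewer genes were changed there than the 4026 called in the data, so this share does not carry over to them. In the data C4H passed in Col at 1.33-fold, whereas CHS at 1.52-fold did not.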
